A study of Mus musculus with 7 samples.

Results

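Of 22704 RefSeq promoter rows in mouse embryonic stem cells (ESCs), 391 carried a high Tip60 ChIP-seq signal and a low Hdac6 signal in control cells. They were chosen by 3 values, each the mean signal from 500 bp upstream to 500 bp downstream of the transcription start site (TSS) in ppm (reads covering a position per 1000000 reads of the library). The Tip60 signal upon control knockdown (KD) was at least 0.25 ppm, it was at least 2 times the Flag signal of untagged cells, and the Hdac6 signal upon control KD was below 0.15 ppm. Of all RefSeq rows, 51.5% lay below this Hdac6 limit, so low Hdac6 means below the limit and not depleted. The 391 rows, called members here, stood for 372 gene symbols at 364 separate positions, once rows of 1 gene or within 1000 bp of each other were merged. They made up 22.9% of the 1704 rows that met both Tip60 criteria (7.51% of all RefSeq rows), and 1.72% of all RefSeq rows. The other 1313 Tip60-high rows, with an Hdac6 signal of 0.15 ppm or more, serve below as the nearest set for comparison.

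Tip60 (also called Kat5) is a histone acetyltransferase, and p400 is the ATPase of the same chromatin remodeling complex that places the histone variant H2A.Z into nucleosomes. Hdac6 is a class II deacetylase best known for its cytoplasmic substrates, such as tubulin. ESCs need this complex to keep their identity.

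The study used E14 mouse ESCs and 7 ChIP-seq libraries, 1 for each condition. Tip60-H3F cells carried a tag of histidines and 3 Flag copies on an endogenous Tip60 copy, and Hdac6-H3F cells carried the same tag at Hdac6. Tip60-H3F cells were infected for GFP KD (the control) or Hdac6 KD, and Hdac6-H3F cells for GFP KD or Tip60 KD, both followed by a Flag ChIP. Untagged E14 cells gave the Flag background, and endogenous p400 was precipitated with an antibody from cells with GFP KD or Hdac6 KD. KD cells were collected 72 hr after lentiviral infection. Each tagged line is a single knock-in line, so a property of that line cannot be told apart from the tag. The genotype label of the Hdac6 library with Tip60 KD names Hdac6 KD instead, and the title was followed. ChIP signal gives no expression level, so neither KD efficiency nor cell identity was checked here.

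With 1 library per condition there is no replicate spread and no test between conditions. Intervals below are 95% exact binomial or Poisson intervals and cover counting error only, not differences between cultures or precipitations. The signal steps gave libraries normalized to between 9226710 reads (Hdac6 upon Tip60 KD) and 31375600 reads (p400 upon Hdac6 KD). At that depth the Tip60 limit of 0.25 ppm equals about 18 reads in the window, and the Hdac6 limit of 0.15 ppm about 12 reads. Reads covered about 299 bp each in the Tip60, untagged and p400 libraries and about 149 bp in the Hdac6 libraries, so ppm values of Hdac6 were not compared with those of the other proteins.

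The promoters of 6 members show the range of sequence that shared this pair of signals. Each line gives the 200 bases before the TSS in mm9, read 5′ to 3′ along the gene's strand, and capitals mark matches, in either orientation, to the motif letters given further below. Eif2s1 and Adh5 were among the members with the highest Tip60 and a low untagged signal, Aars had one of the highest p400 signals, and Ccnb2 had one of the largest p400 reductions upon Hdac6 KD. Olfr937 and Capzb stand for members with few p400 reads or with more p400 reads upon Hdac6 KD.
Eif2s1 (chr12:79962859-79963058, plus strand): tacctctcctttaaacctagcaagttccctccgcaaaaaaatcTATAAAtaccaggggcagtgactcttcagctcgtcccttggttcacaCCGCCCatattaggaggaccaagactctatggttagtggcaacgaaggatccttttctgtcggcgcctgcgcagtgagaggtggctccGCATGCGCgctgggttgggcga
Adh5 (chr3:138105928-138106127, plus strand): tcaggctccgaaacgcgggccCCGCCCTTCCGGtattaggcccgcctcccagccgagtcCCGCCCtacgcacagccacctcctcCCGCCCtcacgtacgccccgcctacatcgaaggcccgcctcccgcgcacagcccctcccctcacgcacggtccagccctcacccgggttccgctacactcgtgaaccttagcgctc
Aars (chr8:113557667-113557866, plus strand): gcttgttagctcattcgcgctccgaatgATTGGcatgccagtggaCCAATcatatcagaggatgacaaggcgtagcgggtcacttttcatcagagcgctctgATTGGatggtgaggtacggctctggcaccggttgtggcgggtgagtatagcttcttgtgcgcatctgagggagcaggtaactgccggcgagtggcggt
Ccnb2 (chr9:70269362-70269561, minus strand): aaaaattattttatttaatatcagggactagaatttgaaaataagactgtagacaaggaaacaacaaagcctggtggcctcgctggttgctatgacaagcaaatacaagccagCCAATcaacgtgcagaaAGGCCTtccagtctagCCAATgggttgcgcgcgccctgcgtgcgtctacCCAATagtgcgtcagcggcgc
Olfr937 (chr9:38868250-38868449, minus strand): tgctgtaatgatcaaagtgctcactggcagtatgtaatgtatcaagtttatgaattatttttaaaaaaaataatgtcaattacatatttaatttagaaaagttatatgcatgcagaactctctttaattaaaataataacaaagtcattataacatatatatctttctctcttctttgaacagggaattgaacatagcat
Capzb (chr4:138836183-138836382, plus strand): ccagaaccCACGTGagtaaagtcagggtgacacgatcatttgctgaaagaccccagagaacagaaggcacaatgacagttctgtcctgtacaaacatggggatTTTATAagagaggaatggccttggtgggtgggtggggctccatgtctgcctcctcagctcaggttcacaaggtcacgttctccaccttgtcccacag
The Adh5 sequence held GGGCGG letters on the reverse strand at 3 places, with the first overlapping an ETS match, and Ccnb2 held CCAAT at 3 places. None of the 10 motifs lay in the 200 bases of Olfr937, whereas Capzb held CACGTG and, on the reverse strand, TATAAA.

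The values that chose the members are a description. Tip60 upon GFP KD ranged from 0.251 to 0.934 ppm with a median of 0.320, which corresponds to 18 to 68 reads with a median of 23. Hdac6 upon GFP KD ranged from 0 to 0.149 ppm with a median of 0.115, or at most 12 reads. The median of all rows in that library was 0.146 ppm. The untagged signal had a median of 0.130 ppm in members and 0.152 ppm in all rows. At the Tip60 limit the nearest row inside was 4932438H23Rik at 0.251 ppm, and Foxm1, with the same 18 reads, fell just short. At the Hdac6 limit, Tef lay inside at 0.149 ppm and Prr18 outside at 0.151 ppm, each with 12 reads. At the limit on the ratio to untagged cells, Nupl2 lay inside at 2.01 and Jmjd4 outside at 2.00. Within 10% of the Hdac6 limit there were 95 members and 115 rows just outside it, so a difference of about 1 read decided membership there.

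**Figure D1:**
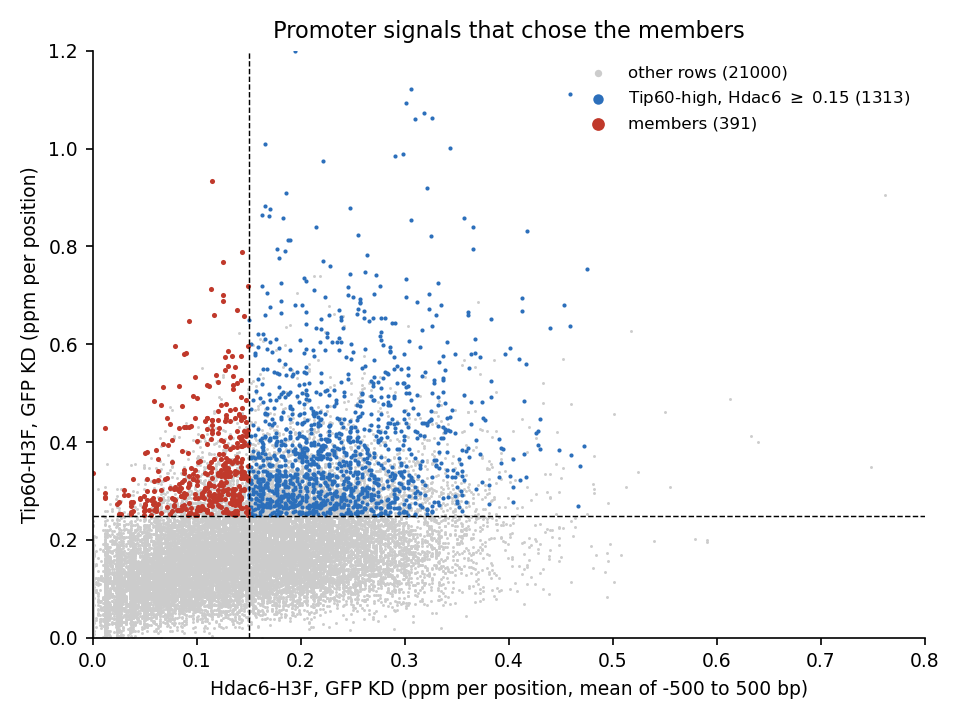
Each point is 1 RefSeq row, placed by its Hdac6 signal (x axis) and Tip60 signal (y axis) upon GFP KD, both in ppm per position over −500 to 500 bp, with dashed lines at 0.15 and 0.25 ppm. The 391 members (red) fill the upper left corner next to the 1313 Tip60-high rows with more Hdac6 (blue) with no gap between them, and 9 rows that are not members lie beyond the axes.

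The first question was whether the Tip60 signal was also present in the second Tip60 library, which took no part in the choice. That library came from Hdac6 KD cells and is not a replicate. An effect of the KD and a difference between libraries therefore cannot be told apart in it. Upon Hdac6 KD, 139 of 391 members still carried at least 0.25 ppm of Tip60, which is 35.5% (95% interval 30.8 to 40.5), against 14.9% of all RefSeq rows. Among the Tip60-high rows with more Hdac6 the share was 38.9%. The member signal in this library ran from 0.0235 to 0.594 ppm with a median of 0.209, close to the 0.214 ppm of the Tip60-high rows with more Hdac6 and above the 0.143 ppm of all rows. Compared with its own GFP KD value, Tip60 was lower at 356 members, or 91.0%, against 62.5% of all rows. Since the GFP KD value chose the members, a lower second value follows in part from the choice and nothing is read from that count.

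The genes differed widely in this respect. Hnrnph1, a splicing regulator, had 0.538 ppm of Tip60 in control cells and 0.594 ppm after Hdac6 KD. Laptm4a, a lysosomal membrane protein, had 0.548 and 0.546 ppm. At Anp32b, an acidic nuclear protein that binds histones, the values were 0.533 and 0.0870 ppm, the latter below the 0.138 ppm of untagged cells. Lars, the leucyl-tRNA synthetase and the member with the most Tip60, went from 0.934 to 0.345 ppm, with 0.247 ppm in untagged cells. Thus members with nearly the same control value ended on either side of the background level in the second library.

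The next question was whether Hdac6 was also low in the second Hdac6 library. It came from Tip60 KD cells, so here too the KD and a difference between libraries cannot be told apart. Upon Tip60 KD, 203 of 391 members were below 0.15 ppm, which is 51.9% (interval 46.8 to 57.0), and the share over all rows was 50.3%. The Tip60-high rows chosen with more Hdac6 were below 0.15 ppm in 13.6%. The member median was 0.147 ppm, against 0.149 ppm for all rows and 0.232 ppm for the Tip60-high rows with more Hdac6. In the library the rule did not use, members therefore had about the Hdac6 level of an average promoter and not an absence of Hdac6. Lars had 0.115 ppm of Hdac6 in control cells and 0.0935 ppm after Tip60 KD, low in both. Eef1b2, a subunit of the elongation factor that reloads eEF1A, had 0.100 and 0.312 ppm (8 and 20 reads). Ddx17, an RNA helicase, had 0.147 and 0.298 ppm (12 and 19 reads). Hdac6 was higher than its own GFP KD value at 76.7% of members, against 51.5% of all rows. Since members were chosen for a low GFP KD value, a higher second value follows in part from the choice. Nothing is read from these rises.

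Both second-library criteria together, Tip60 of at least 0.25 ppm and Hdac6 below 0.15 ppm, held at 66 members. That is 16.9% (interval 13.3 to 21.0), against 5.18% of the Tip60-high rows with more Hdac6 and 4.97% of all rows. Lars, Laptm4a and Refbp2, an mRNA export factor of the Aly family, were among them, as were the ribosomal protein genes Rpl30, Rpl36a, Rplp1 and Rps29. These ribosomal protein genes were picked after their values were seen. Rpl30 had Tip60 signals of 0.596 and 0.405 ppm and Hdac6 signals of 0.0795 and 0.130 ppm. It thus met the limits of 0.25 and 0.15 ppm in all 4 Flag libraries of tagged cells. The second-library criteria did not include the ratio to untagged cells. With 0.241 ppm in untagged cells, Tip60 at Rpl30 upon Hdac6 KD was less than 2 times that background.

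**Figure D2:**
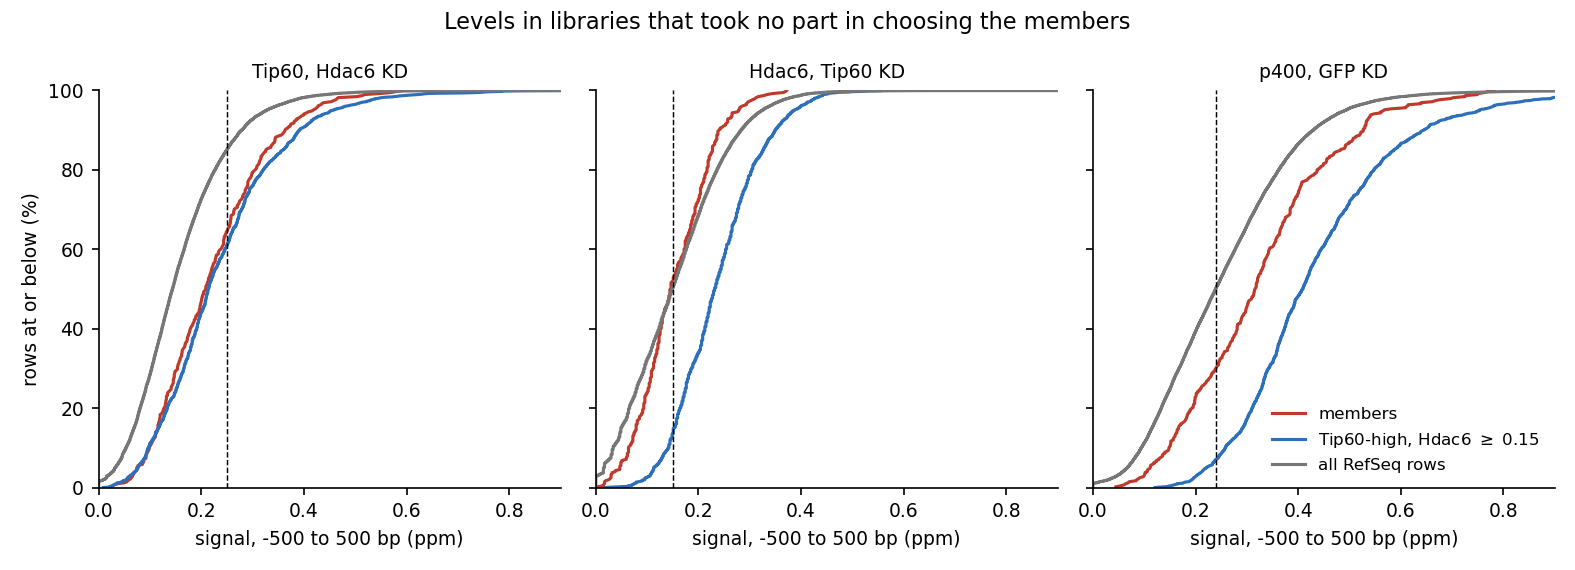
The cumulative share of rows (y axis, percent) is drawn against the signal over −500 to 500 bp (x axis, ppm) for Tip60 upon Hdac6 KD, Hdac6 upon Tip60 KD and p400 upon GFP KD, with dashed lines at 0.25 ppm, 0.15 ppm and the median of all rows. Members (red) run beside the other Tip60-high rows (blue) for Tip60, beside all rows (grey) around the middle of the Hdac6 panel, and between the 2 for p400.

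p400 offered a readout with another antibody and without a tag. Upon GFP KD, p400 at members ranged from 0.0449 to 0.783 ppm with a median of 0.316, above the 0.239 ppm of all rows and below the 0.409 ppm of the Tip60-high rows with more Hdac6. In the top 10% of all rows by p400 were 84 members, or 21.5% (interval 17.5 to 25.9), against 10% by construction and 43.7% of the Tip60-high rows with more Hdac6. The share depended on the limits, since it was 7.19%, below that of all rows, with an Hdac6 limit of 0.10 ppm and 46.0% with a Tip60 limit of 0.35 ppm. Below the median of all rows were 117 members, or 29.9%, against 7.08% of the Tip60-high rows with more Hdac6. Members were thus a mixture, with a part rich in p400 and a part with less p400 than an average promoter.

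The members with the most p400 reads upon GFP KD were Ddx17 with 68, Anp32b and Lars with 66 each, and Aars (alanyl-tRNA synthetase) and Hnrnph1 with 65 each. Their Tip60 signals were 0.412 ppm for Ddx17, 0.533 ppm for Anp32b, 0.934 ppm for Lars, 0.659 ppm for Aars and 0.538 ppm for Hnrnph1. The members with the fewest reads were Vmn2r90 with 4, Gngt1, Klhl32 and Olfr937 with 5 each and Adh7 with 6. Vmn2r90 and Olfr937 encode vomeronasal and olfactory receptors, Gngt1 a transducin subunit of rods, and Adh7 an alcohol dehydrogenase. Their Tip60 signals were in the lower part of the members' range, at 0.251 ppm for Vmn2r90, 0.257 ppm for Gngt1, 0.254 ppm for Klhl32, 0.283 ppm for Olfr937 and 0.296 ppm for Adh7. Upon Hdac6 KD, none of these 5 reached 0.25 ppm of Tip60, with values from 0.135 ppm at Vmn2r90 to 0.226 ppm at Olfr937.

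The p400 comparison between the knockdowns used 2 libraries that took no part in the choice. Upon Hdac6 KD, p400 was lower, by any amount, at 335 of 391 members, or 85.7%, against 73.5% of all rows, and its median was 0.182 ppm, beside 0.209 ppm in the Tip60-high rows with more Hdac6 and 0.176 ppm in all rows. A fall of at least 1.5-fold, on the scale of log2(ppm + 0.05) and among rows with at least 20 p400 reads in both libraries together, was found at 223 of 386 members. That is 57.8% (interval 52.7 to 62.8), against 37.8% of all rows tested and 71.8% of the Tip60-high rows with more Hdac6. A rise of that size was found at 9 members, or 2.33%, against 4.38% of all rows. The median log2 change was −0.69 in members, −0.86 in the Tip60-high rows with more Hdac6 and −0.42 in all rows, and members lay between the other sets. Taken relative to rows of the same GC content, such a fall was found in 27.5% of members, 27.2% of the Tip60-high rows with more Hdac6 and 11.4% of all rows.

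**Figure D3:**
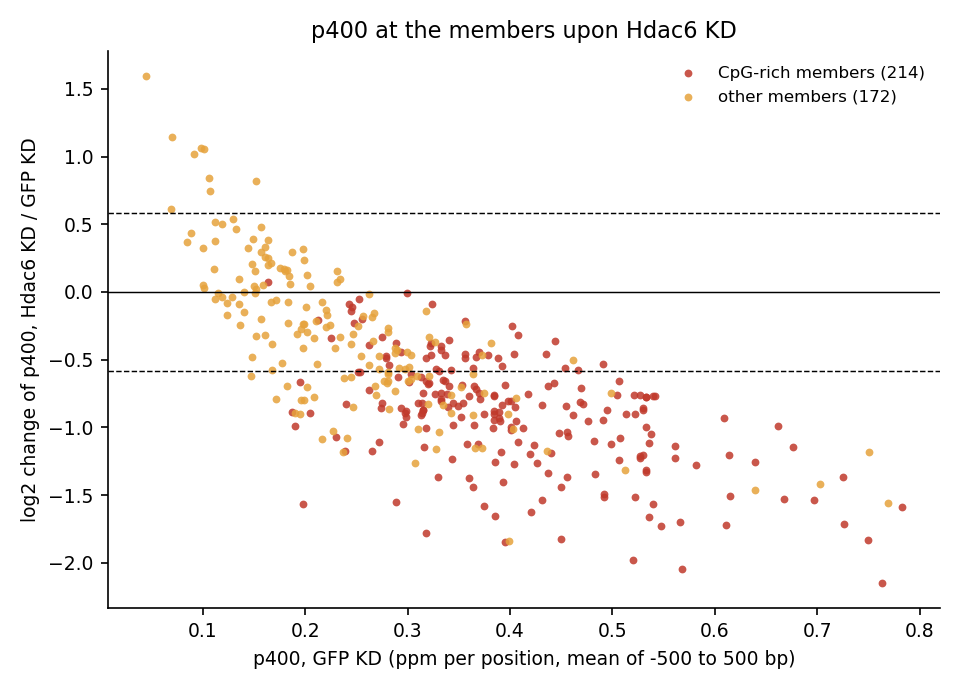
Each of the 386 members tested is placed by its p400 signal upon GFP KD (x axis, ppm) and by the log2 change of p400 upon Hdac6 KD (y axis), with dashed lines at a 1.5-fold change and CpG-rich windows in red. Members with more p400 upon GFP KD lie lower, with Vmn2r90 at the upper left and Anp32b at the lower right, and the GFP KD value enters both axes.

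The reduction followed the starting level, as it did elsewhere. Of the 84 members in the top 10% by p400, 92.9% had a fall of at least 1.5-fold, and of all rows in that class 93.3% had one. In members between the median and the top 10% the share was 65.8% and in all such rows 51.7%. In members below the median it was 17.9%, against 9.97% of all such rows, whose median log2 change was 0.0028. The GFP KD value sets these classes and is also the denominator of the change.

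Among members with at least 40 p400 reads, the largest falls were at Anp32b, Ccnb2, Gpr19 and Ddx3x. Anp32b had 66 reads in control cells and 14 after Hdac6 KD, a depth-scaled ratio with an interval of 0.0887 to 0.308. Ccnb2, a mitotic B-type cyclin, had 49 and 11 reads (interval of the ratio 0.0849 to 0.353), and its Tip60 went from 0.418 to 0.233 ppm. Gpr19, an orphan G-protein-coupled receptor, had 45 and 10 reads of p400 (0.0805 to 0.361), while its Tip60 was 0.301 ppm in control cells and 0.361 ppm after Hdac6 KD. Ddx3x, an X-linked RNA helicase, had 34 and 8 reads (0.0759 to 0.418). These genes were picked for their falls among 267 members with enough reads, so the intervals describe the counting error of each ratio and test nothing.

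At the other end were Capzb, an actin capping subunit, Nif3l1, Trem3, a myeloid receptor, and Cpeb3, a regulator of mRNA polyadenylation. Capzb had 13 reads in control cells and 33 after Hdac6 KD, with an interval of 1.05 to 4.24 for the depth-scaled ratio, and it too was picked for its change. The intervals were 0.754 to 3.10 for Nif3l1, 0.702 to 2.59 for Trem3 and 0.677 to 2.62 for Cpeb3. These 4 members had between 0.152 and 0.198 ppm of p400 upon GFP KD, below the median of all rows.

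Upon GFP KD, the mean signals of Tip60, p400 and Hdac6 at members all peaked downstream of the TSS, that of Hdac6 at 140 bp. Reads covered about 149 bp in the Hdac6 libraries and about 299 bp in the others, so peak widths were not compared. Averaged over members, p400 upon GFP KD peaked 80 bp downstream at 0.386 ppm, and its mean from −100 to 300 bp was 0.367 ppm against 0.279 ppm from −600 to −200 bp. The downstream window was the higher in 69.8% of members, 67.1% of the Tip60-high rows with more Hdac6 and 60.5% of all rows. Tip60 upon GFP KD, which chose the members, peaked 120 bp downstream at 0.394 ppm, with 0.380 ppm downstream and 0.311 ppm upstream. Its downstream window was the higher in 62.4% of members, 61.2% of the Tip60-high rows with more Hdac6 and 50.4% of all rows. Tip60 upon Hdac6 KD was flat, with 0.222 and 0.218 ppm. Here the downstream window was the higher in 51.4% of members, 47.8% of the Tip60-high rows with more Hdac6 and 45% of all rows. The untagged signal dipped at the TSS, with 0.123 ppm downstream and 0.146 ppm upstream. Its downstream window was the higher in 39.1% of members, 34.9% of the Tip60-high rows with more Hdac6 and 43.7% of all rows. Both Tip60-high sets were chosen for an untagged signal that was low relative to Tip60 around the TSS. The dip therefore follows in part from the choice.

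Hdac6 upon Tip60 KD peaked 120 bp downstream of the member TSS at 0.208 ppm, where the mean flank signal, 1500 to 2000 bp away, was 0.0871 ppm. Over all rows it peaked 100 bp downstream at 0.195 ppm, with a mean flank signal of 0.0873 ppm. In members the downstream mean was 0.188 ppm and the upstream mean 0.109 ppm. The downstream window was the higher in 74.4% of members, 70.1% of the Tip60-high rows with more Hdac6 and 64.7% of all rows. Even in the library that chose them for low Hdac6, members averaged 0.128 ppm downstream and 0.0909 ppm upstream. Downstream was the higher in 65.2% of members, 72.7% of the Tip60-high rows with more Hdac6 and 65% of all rows. For p400 upon Hdac6 KD the means were 0.194 and 0.163 ppm (66.8% of members, 56.6% of the Tip60-high rows with more Hdac6, 58% of all rows).

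**Figure D4:**
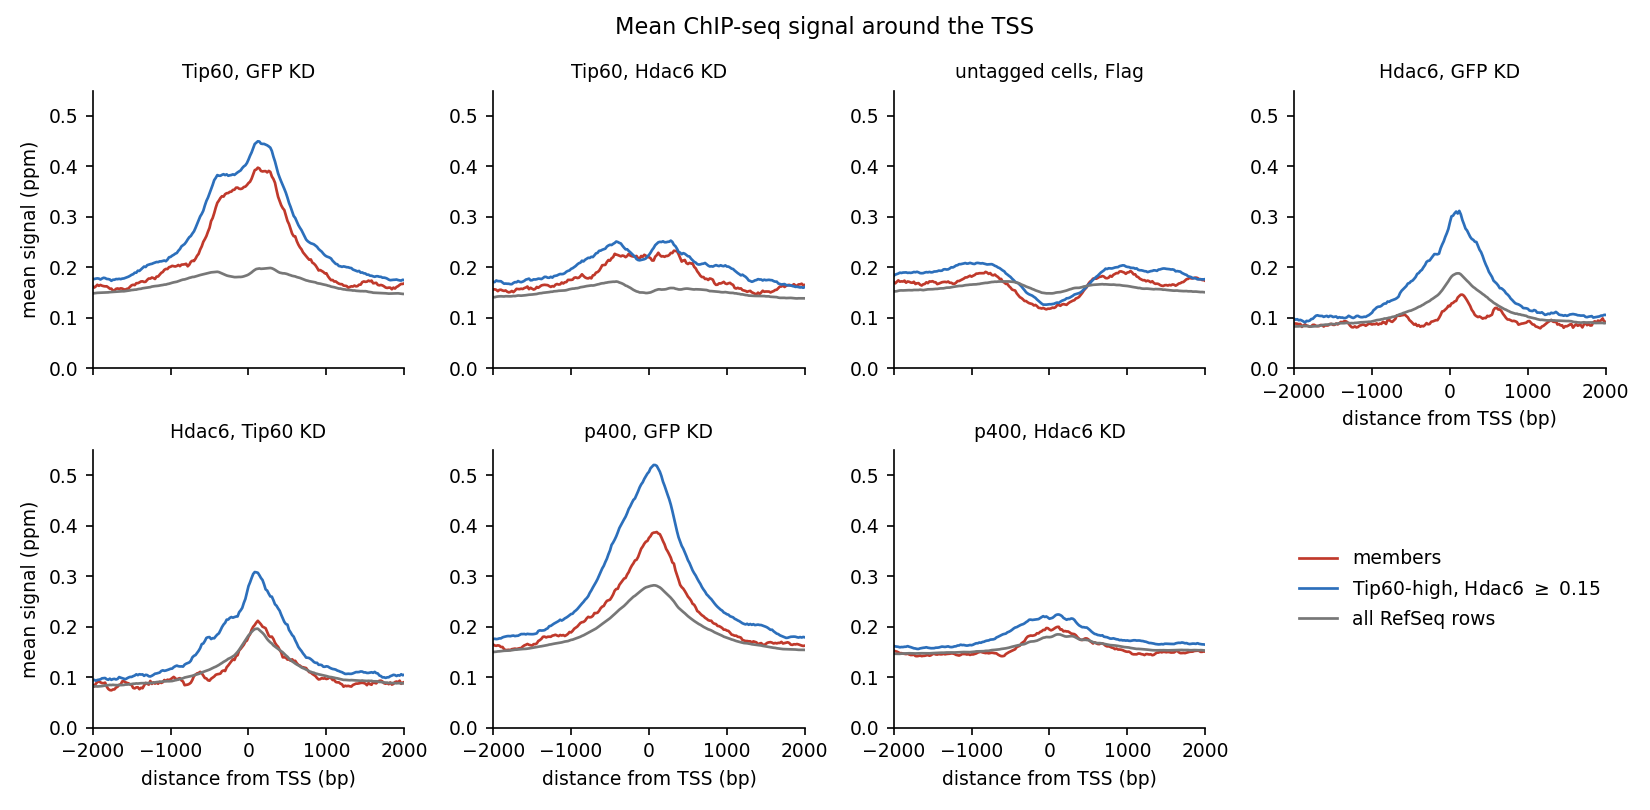
Mean ChIP-seq signal (y axis, ppm) is drawn against the distance from the TSS (x axis, bp) in the 7 libraries for members (red), Tip60-high rows with more Hdac6 (blue) and all rows (grey). The p400 peak of members upon GFP KD reaches 0.386 ppm and shrinks to 0.198 ppm upon Hdac6 KD. Hdac6 upon Tip60 KD forms a peak of 0.208 ppm at members and of 0.195 ppm over all rows.

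The rule read no sequence directly, and members differed in base composition from the other Tip60-high rows. Only the Hdac6 limit separated these sets, and Hdac6 signal itself ran with GC content. Across all rows, the Pearson correlation of Hdac6 upon Tip60 KD was 0.66 with GC content and 0.79 with Hdac6 upon GFP KD, which set the limit. The differences in base composition between these sets may therefore follow in part from the choice, and are given as a description. The median GC content of the promoter was 54.6% in members, 61.5% in the Tip60-high rows with more Hdac6 and 55.2% in all rows. A CpG-rich promoter, with at least 50% GC and an observed over expected CpG ratio of at least 0.6, was present at 214 members, or 54.7% (interval 49.6 to 59.7). The share was 86.6% in the Tip60-high rows with more Hdac6 and 44.4% in all rows. Another RefSeq gene started within 1000 bp on the opposite strand at 38 members, or 9.72%, compared with 16.6% of the Tip60-high rows with more Hdac6 and 6.37% of all rows. All 38 lay in CpG-rich promoters, where 17.8% of members, 18.6% of the Tip60-high rows with more Hdac6 and 11.9% of all rows had such a neighbour. With an Hdac6 limit of 0.10 ppm the share of members was 3.60%, below that of all rows, and GC content was above the median of all rows in 20.1% of members instead of 46.0%.

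The 214 CpG-rich members and the other 177 members gave different counts in the libraries that the rule did not use, and so did CpG-rich and other rows of the whole table. Tip60 upon Hdac6 KD was at least 0.25 ppm in 47.2% of CpG-rich members and in 21.5% of the others, beside 20.8% and 10.1% over all rows. p400 upon GFP KD was in the top 10% in 35.5% and 4.52% of members, beside 20.04% and 1.98% over all rows. It had a fall of at least 1.5-fold upon Hdac6 KD in 79.0% and 31.4% of the members tested, beside 59.6% and 17.1%. Hdac6 upon Tip60 KD was below 0.15 ppm in 36.9% and 70.1% of members, beside 21.9% and 73.0%. CpG-rich and other Tip60-high rows with more Hdac6 gave 41.0% and 25.6% for Tip60 and 47.8% and 17.0% for the top 10%. For the p400 fall they gave 77.2% and 36.9%, near the members, and for low Hdac6 11.3% and 28.4%. The Pearson correlation of p400 upon GFP KD with GC content was 0.51 across the 391 members, 0.48 across all rows and 0.064 across the Tip60-high rows with more Hdac6. For Hdac6 upon Tip60 KD it was 0.63, 0.66 and 0.43. These points share 1 library each and their base composition, and they are given as a description. The part of GC content in these differences was not tested beyond the same-GC count of p400 falls given above.

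The Tip60 level that placed members above the limit ran with the same features. Of 155 members with 0.25 to 0.30 ppm, 20.6% had at least 0.25 ppm of Tip60 upon Hdac6 KD, against 30.7% of the 140 with 0.30 to 0.40 ppm and 66.7% of the 96 with 0.40 ppm or more. In the same order, 3.87%, 15.0% and 59.4% were in the top 10% by p400, and 40.4%, 55.4% and 88.5% of those tested had a p400 fall of at least 1.5-fold. CpG-rich promoters made up 41.9%, 50.7% and 81.3% of members, below the 60.9%, 71.2% and 84.6% of all rows in the same ranges. In the Tip60-high rows with more Hdac6 the shares were 80.1%, 86.2% and 91.9%. Hdac6 upon Tip60 KD was below 0.15 ppm in 60.6%, 51.4% and 38.5%. Over all rows in the same 3 ranges the shares were 23.6%, 36.3% and 65.6% for Tip60 upon Hdac6 KD, 15.7%, 31.8% and 72.6% for the top 10% by p400, 49.4%, 63.2% and 86.1% for the p400 fall and 30.6%, 23.5% and 16.1% for low Hdac6, so each ran in the same direction there. The ranges are cut on a value that the rule used.

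Motif letters were counted on both strands from 250 bp upstream to 50 bp downstream of the TSS. CCGGAAG, bound by ETS factors, was present in 18.9% of members, 23.2% of Tip60-high rows with more Hdac6 and 11.1% of all rows. CCAAT, bound by NFY, was present in 41.7%, 32.4% and 36.4%, and GGGCGG, bound by SP1, in 48.8%, 72.2% and 45.8%. The TATA box letters TATAAA were present in 12.3%, 4.34% and 12.5%, so on this count members were closer to all rows than to the other Tip60-high rows. Among CpG-rich rows alone, ETS letters were in 29.4% of members, 25.3% of the Tip60-high rows with more Hdac6 and 19.3% of all rows, GGGCGG in 68.7%, 75.8% and 75.3%, CCAAT in 43.9%, 32.5% and 35.6%, and TATAAA in 6.54%, 4.22% and 5.01%.

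The E-box CACGTG was present in 10.2%, 14.5% and 7.66% of members, the Tip60-high rows with more Hdac6 and all rows. For the NRF1 letters GCATGCGC the shares were 5.12%, 6.55% and 3.12%, for the YY1 letters ATGGCGG 9.46%, 14.01% and 5.77%, and for the CRE TGACGTCA 2.81%, 3.73% and 2.19%. The ZFX letters AGGCCT were present in 9.21%, 9.98% and 9.68%, and the THAP11 letters ACTACAATT in 1.28%, 0.99% and 0.480%. A match says only that the letters are there.

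By gene class, cytosolic ribosomal proteins held the most members of the named complexes. Of 96 rows for these genes, 11 were members, or 11.5% compared with 1.72% of all rows, and another 39 were Tip60-high with more Hdac6. Members were thus 11 of the 50 Tip60-high rows of this list, near the 22.9% among all Tip60-high rows. Low Hdac6 was therefore about as common there as in Tip60-high rows at large. The members included Rpl14, Rpl30, Rpl36, Rpl36a, Rpl38, Rplp1, Rps29, Rps4x and Rps7, parts of the large (Rpl) and small (Rps) ribosomal subunits. Their Tip60 upon GFP KD ran from 0.271 ppm at Rpl36a and Rps29 to 0.768 ppm at Rpl36. Upon Hdac6 KD, 10 of the 11 kept at least 0.25 ppm of Tip60, all but Rps4x at 0.172 ppm. Hdac6 upon Tip60 KD was below 0.15 ppm at 5 of them, and p400 upon GFP KD was in the top 10% at 7. Over all 96 rows of the list, 76.0% kept at least 0.25 ppm of Tip60, 22.9% were below 0.15 ppm of Hdac6 and 72.9% were in the top 10% by p400.

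Upon Hdac6 KD, p400 had a fall of at least 1.5-fold at 10 of these 11 genes, and over the whole ribosomal protein list at 84 of 94 rows tested, or 89.4%, compared with 37.8% of all rows. At Rps7, p400 went from 0.725 to 0.251 ppm. At Rpl36a it went from 0.449 to 0.0912 ppm and at Rpl14 from 0.491 to 0.324 ppm. Ribosomal protein genes have many processed pseudogenes, and reads that matched several places were put at 1 of them at random, so their values, like those of the receptor families, are less certain. Many of these promoters were therefore Tip60-high whether they counted as low or as high in Hdac6.

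The aminoacyl-tRNA synthetases, which load amino acids onto tRNAs, had 4 members (Aars, Lars, Mars and Wars2) among 34 rows and another 11 Tip60-high rows. Translation initiation and elongation factors had 5 members (Eef1b2, Eef1e1, Eef1g, Eif2s1 and Eif3a) among 59 rows and another 17 Tip60-high rows, and DEAD box RNA helicases had 5 (Ddx17, Ddx31, Ddx3x, Ddx47 and Ddx5) among 44 rows and another 6. These 3 lists were added after the members had been seen, so their shares are not evidence of a class. The Ddx5 member was a downstream start, at 106645341, with 0.262 ppm of Tip60 and 0.0542 ppm of Hdac6 upon GFP KD. The Ddx5 starts at 106649808 and 106650179 were not members. They had 0.626 and 0.557 ppm of Tip60 and 0.278 and 0.355 ppm of Hdac6. Mars, the methionyl-tRNA synthetase, had 0.789 ppm of Tip60 in control cells and 0.336 ppm after Hdac6 KD, with 0.296 ppm in untagged cells. All 4 synthetases, all 5 factors and all 5 helicases had a p400 fall of at least 1.5-fold upon Hdac6 KD, from 0.676 to 0.279 ppm at Mars and from 0.667 to 0.198 ppm at Eef1b2. Such a fall was common in the whole lists too, at 24 of 34 synthetase rows (70.6%), 43 of 57 factor rows (75.4%) and 28 of 42 helicase rows (66.7%), against 37.8% of all rows. Eif2s1, the alpha subunit of eIF2, went from 0.370 to 0.193 ppm.

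**Figure D5:**
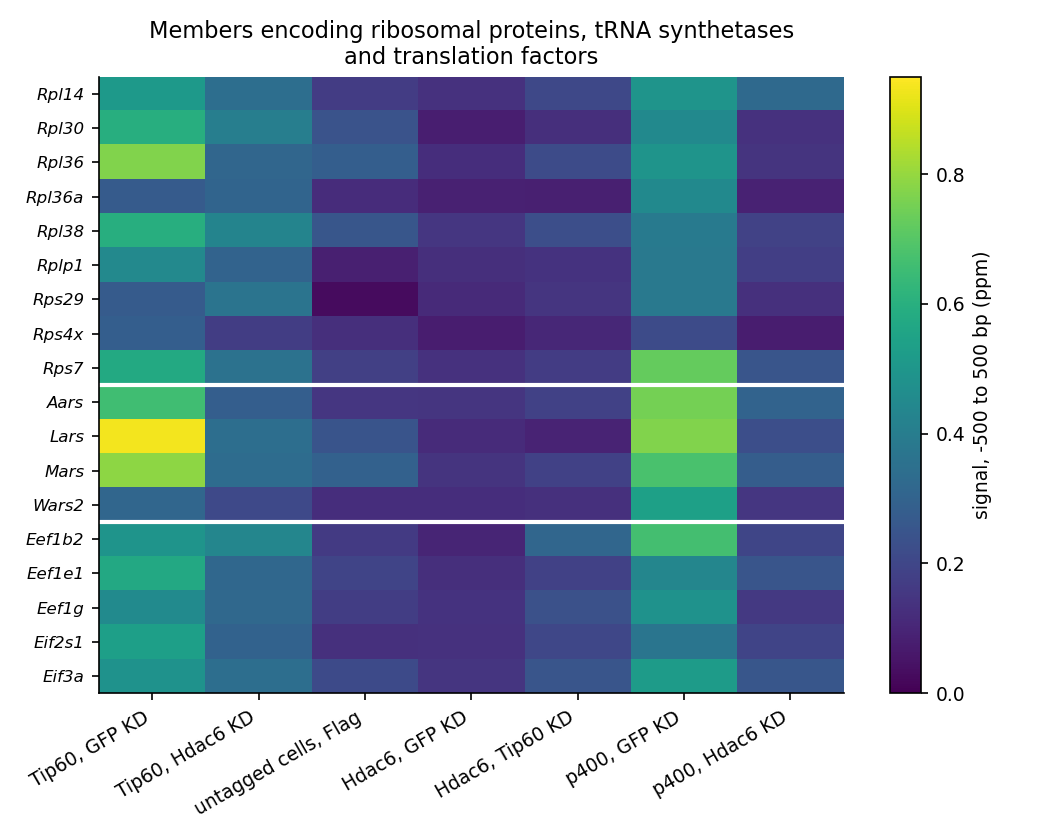
Colour gives the signal over −500 to 500 bp (ppm) in the 7 libraries (columns) for 18 members that encode ribosomal proteins, tRNA synthetases and translation factors (rows, with white lines between the lists). Lars has the brightest cell, at 0.934 ppm of Tip60 upon GFP KD, and p400 upon Hdac6 KD is darker than p400 upon GFP KD in every row.

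Other lists had member shares nearer to the 1.72% of all rows, or rested on a few rows. Zinc finger genes had 8 members among 358 rows (2.23%), solute carriers 9 among 455 (1.98%), and RIKEN and Gm models 19 among 1400 (1.36%). Mitochondrial ribosomal proteins had 3 rows (Mrpl1 and Mrpl42) among 77 (3.90%), and clustered protocadherins 2 (Pcdhb19 and Pcdhga8) among 57 (3.51%). Olfactory, vomeronasal and taste receptors had 5 members among 1337 rows, or 0.374%, and none of the 5 reached 0.25 ppm of Tip60 upon Hdac6 KD or the top 10% by p400, while all 5 were below 0.15 ppm of Hdac6 upon Tip60 KD. The whole list was alike, with 3.89% of its rows at 0.25 ppm of Tip60, no row in the top 10% by p400 and 97.5% below 0.15 ppm of Hdac6 in the same libraries. No member was found among 62 rows of replication-dependent histones, 37 of proteasome subunits, 43 of Hox genes, 29 of Tip60-p400 subunits, 19 of core pluripotency genes, 15 of germline genes or the 38 rows of genes for which the study designed primers. In lists this short, the 1.72% of all rows would give about 1 member or none, so nothing is read from these counts. microRNAs and small nucleolar RNAs had no RefSeq row here.

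The 8 members with the highest Tip60 among those whose untagged signal did not exceed 0.152 ppm, the median of all rows, began with Aars at 0.659 ppm, whose untagged signal equalled that median within the rounding of the deposited values. Nol12, a nucleolar protein of rRNA processing, had 0.555 ppm. Laptm4a, Eif2s1 and Anp32b followed at 0.548, 0.535 and 0.533 ppm. Adh5, which oxidises glutathione-bound formaldehyde, had 0.520 ppm of Tip60 in control cells and 0.40 ppm after Hdac6 KD, and its p400 went from 0.566 to 0.140 ppm. Refbp2 had 0.516 and 0.309 ppm of Tip60 and its p400 went from 0.394 to 0.117 ppm. Dbil5, an acyl-CoA binding protein of the Dbi family, had 0.479 and 0.467 ppm of Tip60 and 0.494 and 0.247 ppm of p400. Gemin4 started within 1000 bp of Dbil5 on the opposite strand, and Atp6v1d within 1000 bp of Eif2s1. The signal in these windows therefore cannot be assigned to 1 gene of either pair. Tip60 upon Hdac6 KD was at least 0.25 ppm at 7 of these 8, all but Anp32b, and Hdac6 upon Tip60 KD was below 0.15 ppm at 2, Laptm4a and Refbp2.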

How the data were processed

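The authors mapped reads to mm9 with Bowtie, placing reads with several matches at 1 of them (version not given in the sources used here; CASAVA 1.8.2 is also named in the submitters' processing notes), extended them and deposited coverage signal scaled to 1000000 reads in 20 bp bins, at 201 positions from −2000 to 2000 bp around each TSS, 1 table per sample. Depth was read from the smallest step of the signal. Reads spanned about 299 bp in the Tip60, untagged and p400 tables and 149 bp in the Hdac6 tables. Rows with a RefSeq identifier (22704 of 36733) were kept. Means over the window, ratios with a pseudocount of 0.05 and a minimum of 20 p400 reads, GC content, motifs and neighbours were computed with Python 3.11.15, numpy 2.4.6, pandas 2.3.3 and scipy 1.17.1. The read counting and fold calls were tried on simulated p400 data with a 4-fold fall at 200 rows. At the 1.5-fold limit, 98% of those rows and 3.91% of unchanged rows were called. Falls smaller than 4-fold were not simulated. Sequence came from the mm9 genome. Named genes were the 8 with the highest Tip60 where the untagged signal did not exceed the all-row median, the 5 with the most and the 5 with the fewest p400 reads, and the 4 at each end of the p400 change with at least 40 p400 reads, 1 row per gene; others were named as examples after their values were seen. Of the gene lists, 16 came from symbols and the study's subject, and 3 (tRNA synthetases, translation factors, DEAD box helicases) were added after the members had been seen. The members and lists were chosen with earlier results of these data known. Some genes are not reported here. Exact intervals are at 95%. Without replicates, no test between conditions was made.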

Additional observations from a re-analysis of the deposited data

How the results depend on the processing

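Raising the Tip60 limit to 0.35 ppm left 139 members, and with it Tip60 upon Hdac6 KD was at least 0.25 ppm in 56.8%, Hdac6 upon Tip60 KD was below 0.15 ppm in 40.3%, p400 was in the top 10% in 46.0%, a p400 fall was found in 84.8%, Tip60 was higher downstream in 68.3%, GC content was above the median of all rows in 53.2% (46.0% as reported) and a divergent neighbour was present in 14.4%. An Hdac6 limit of 0.10 ppm also left 139 members, with 28.8% for Tip60, 74.8% for low Hdac6, 7.19% for the top 10% by p400 (10% of all rows), 50.7% for the p400 fall, 20.1% for GC content and 3.60% for neighbours (6.37% of all rows). Asking for 3 times the untagged signal left 98 members, with 40.8% for Tip60, 29.6% for the top 10% by p400, 55.1% for GC content and 13.3% for neighbours. A window of −250 to 250 bp gave 678 members, 26.5% for Tip60 (all rows 17.0%, Tip60-high rows with more Hdac6 37.0%) and 51.3% for the p400 fall (42.5% and 70.1%), so members then lay nearer to all rows. Scaling libraries to equal median flank signal gave 41.9% of members for Tip60 upon Hdac6 KD, against 19.5% of all rows. A 2-fold limit gave a p400 fall in 24.1% of members, against 12.8% of all rows. Taken relative to rows of the same GC content, a p400 fall of at least 1.5-fold was found in 27.5% of members, 27.2% of the Tip60-high rows with more Hdac6 and 11.4% of all rows, so the gap between the 2 Tip60-high sets was no longer seen. The other 23 comparisons of a setting with the reported value moved less than the counting interval or 1.5 times. No paired analysis was possible because each condition had 1 library and the labels give no shared replicate numbers, and no library could be left out of its condition. A median of 23 Tip60 reads and 9 Hdac6 reads per member limits how finely members can be told from rows just outside the limits.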
